A study of Mus musculus with 6 samples.

Results

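Protein tyrosine phosphatases remove phosphate from tyrosine residues and so set the threshold of signalling through antigen, cytokine and growth factor receptors. The classical genes of the family were followed here in sorted blood cells of 2 mouse lymphoid organs. They comprise the receptor type (Ptpr), which spans the membrane, and the non-receptor type (Ptpn), which lies inside the cell. Members were taken by symbol, Ptpn plus digits or Ptpr plus 1 or 2 letters, among 55487 gene rows. The rule found 36 genes, 19 of the receptor and 17 of the non-receptor type.

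Cells carrying CD45, the product of Ptprc, were sorted fresh from the spleen and from mesenteric lymph nodes (mLN), which filter lymph of the gut. All mice were wild type of the strain C57BL6/J, and no treatment beyond the fresh preparation is named. Each tissue gave 3 polyA RNA libraries of total hematopoietic cells. The sources used here give neither age nor sex, nor whether each library is an animal of its own. The p-values therefore cover only the spread between these libraries, which may be technical.

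In leukocytes CD45 holds Src-family kinases such as Lck and Lyn ready to fire by removing an inhibitory phosphate that the kinase Csk adds. Ptpn22, with Csk, and Ptpn6 (SHP-1), recruited by inhibitory receptors, act against these kinases. Ptpn2 and Ptpn1 act on JAK and STAT proteins downstream of cytokine receptors. CD45 itself is made in several forms, because exons near the start of its message, called A, B and C, are kept or skipped. B cells are known to keep them and naive and memory T cells to differ in how many they keep.

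The 3 variable exons of Ptprc are shown because the size of the CD45 message is one of the measures described below. They were read 5′ to 3′ from the reference transcripts (GENCODE M21, GRCm38, gene on the minus strand of chromosome 1), and capitals mark each CACA, a stretch of the kind that splicing proteins of the hnRNP L family bind. Exon A (chr1:138122456-138122584) has 129 bases, exon B (chr1:138120020-138120166) 147 and exon C (chr1:138117754-138117894) 141.
exon A: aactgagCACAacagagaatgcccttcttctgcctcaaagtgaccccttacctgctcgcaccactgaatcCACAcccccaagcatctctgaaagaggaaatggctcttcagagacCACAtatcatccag
exon B: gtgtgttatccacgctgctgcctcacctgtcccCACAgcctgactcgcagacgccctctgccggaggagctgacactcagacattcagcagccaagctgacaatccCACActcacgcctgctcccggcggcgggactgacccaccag
exon C: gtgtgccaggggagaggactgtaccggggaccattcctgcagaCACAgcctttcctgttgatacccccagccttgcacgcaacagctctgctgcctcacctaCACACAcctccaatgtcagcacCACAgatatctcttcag
On the transcript strand, CACA occurred 3 times in exon A, 2 times in exon B and 4 times in exon C, overlapping matches counted. Of 21101 internal exons of coding transcripts with 129 to 147 bases, 48.0% held it at least once. A match describes the letters and does not show that a protein binds there.

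Libraries held 12584244 to 18119551 expected counts. Levels below are CPM, counts per 1000000 of a library after scaling by TMM factors, and fold changes are mLN over spleen. Tests are the quasi-likelihood test of edgeR with Benjamini-Hochberg adjustment over all 14427 genes tested, called at an adjusted p under 0.05. Beside the phosphatases, all 21 pan-T marker genes were higher in mLN (median log2 fold change 1.19, summed level 2463 to 2488 CPM in the spleen libraries and 5829 to 5905 in mLN). All 20 pan-B genes were lower (median -0.77, 10330 to 10460 CPM in the spleen libraries and 6162 to 6302 in mLN). All 14 neutrophil genes were lower as well (1694 to 1733 CPM in spleen, 19.8 to 20.7 in mLN), with Ly6g and Elane at 0 in mLN. So were all 12 erythroid genes (2455 to 2555 CPM against 80.6 to 91.7). Of 19 genes of stroma, endothelium and epithelium 7 were tested, with a summed level of 17.5 to 28.1 CPM over the libraries and Pdgfra and Pdpn at 0 throughout. In bulk RNA, fewer cells of a type and less RNA per cell cannot be told apart, and the part of this cell mix in the changes below was not tested.

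Of the 36 phosphatase genes, 25 passed the filter on low counts, 9 of 19 receptor-type and 16 of 17 non-receptor-type genes. Of these 25, 8 were higher and 11 lower in mLN. Over all genes tested 45.5% were called, 21.8% higher and 23.8% lower. Changes of at least 2-fold were called for 12.3% of all genes and for 2 of the phosphatases, Ptpn14 and Ptpn5, both lower. Ptpn5, counted among the 11 lower genes as well, passed the filter through its spleen libraries, with 1 mLN library above the minimum. Its direction was thus largely set by the filter and is not counted as support. The median log2 fold change was 0.00 over the 25 tested phosphatases and also 0.00 over all genes tested. The value over all genes is held near 0 by the scaling itself and is a reference, not a result. Tissues did not overlap in CPM for 20 of the 25, against 52.9% of all genes. Most of the differences were thus small and in both directions, with the well-measured genes repeating closely within a tissue. The coefficient of variation within a tissue was 0.944% and 0.812% for Ptpn6, and 43.4% and 68.3% for Ptpn5, the gene with the lowest counts among those called.

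By type, 2 receptor-type genes were higher and 4 lower of 9 tested (median log2 fold change 0.02, but -0.15 to -0.11 without spleen replicate 3 or without any 1 mLN library). Among non-receptor-type genes 6 were higher and 7 lower of 16 tested (median -0.02). For both types the shares over all genes tested were 21.8% higher and 23.8% lower. The 2 types therefore did not separate by direction, and their difference was not tested.

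**Figure D1:**
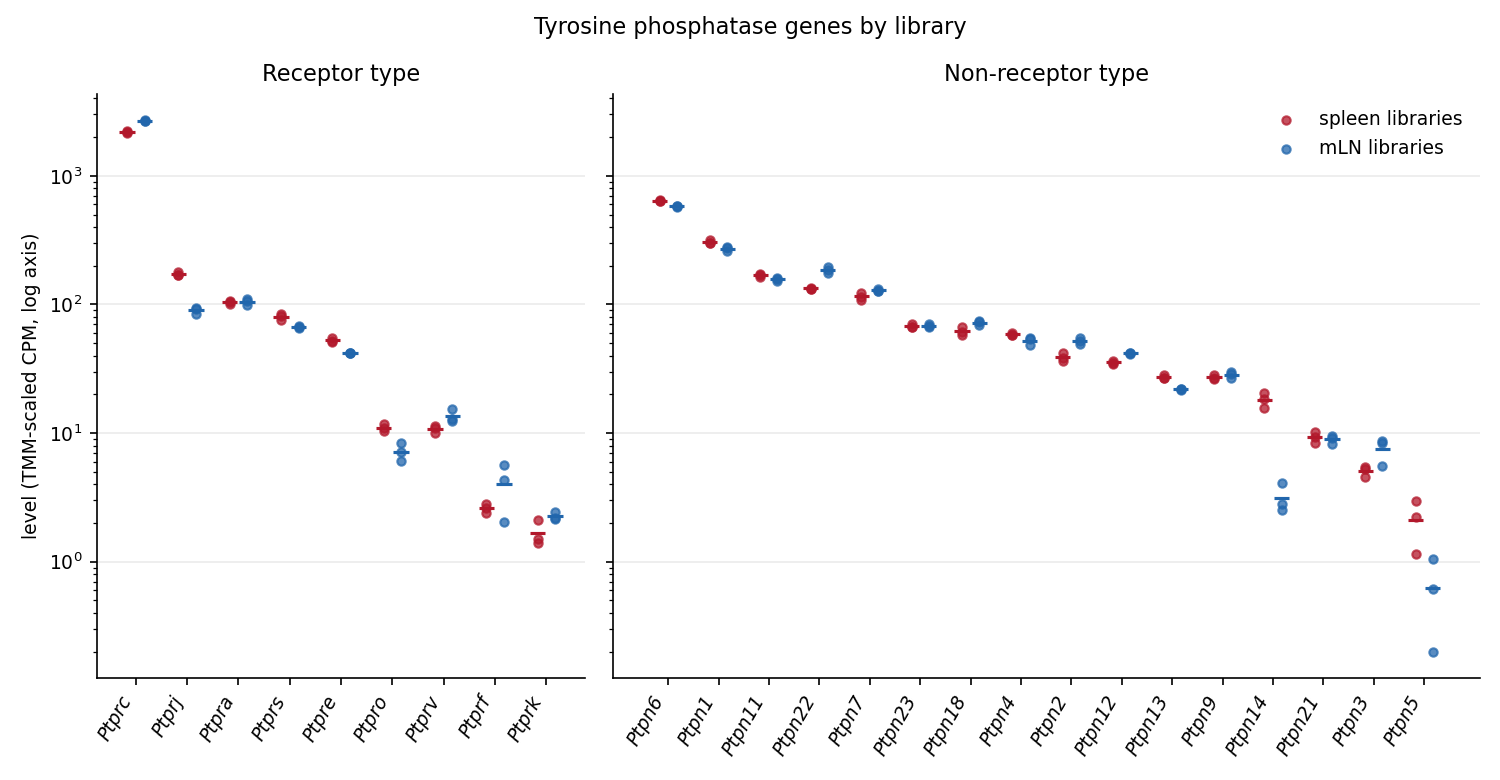
TMM-scaled CPM (log axis) of the 25 tested phosphatase genes in each library, receptor type on the left and non-receptor type on the right, each ordered by spleen mean; points are libraries and short lines the mean of 3. Ptprc stands above 1000 CPM in every library, Ptpn6 follows, and Ptprj and Ptpn14 show the widest gaps in favour of spleen among genes above 10 CPM there.

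Ptprc was by far the most abundant receptor-type gene. It lies on chromosome 1 (138062861 to 138175708, minus strand). Its level was 2178, 2161 and 2235 CPM in the spleen libraries and 2715, 2652 and 2657 CPM in the mLN libraries. Every mLN library stood above every spleen library, at 1.22 times the spleen level by the fitted fold change (log2 fold change 0.29, SE 0.0212, adjusted p = 3.64e-15 by edgeR). Ptprc took 0.219% to 0.227% of all counts in spleen and 0.260% to 0.267% in mLN. Per length it ranked 156th among the tested genes in spleen and 136th in mLN by mean TPM, an abundance scaled for transcript length.

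Ptprj (CD148), a receptor-type phosphatase that can substitute for CD45 in activating Src-family kinases of B cells and myeloid cells, showed the largest change among the abundant members. Its level was 169, 168 and 179 CPM in the spleen libraries and 84.3, 93.8 and 91.5 CPM in mLN. Spleen and mLN libraries were well separated, with spleen 1.92 times as high (log2 fold change -0.94, SE 0.0431, adjusted p = 7.32e-22 by edgeR). The pan-B and neutrophil lists were lower beside it, as given above. Among monocyte markers 8 genes were lower and 3 higher of 12, where 23.8% and 21.8% of all genes tested were. Their summed level was 1334 to 1347 CPM in spleen and 1055 to 1065 in mLN. The part of these 3 lists in the change of Ptprj was not tested.

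Ptpre, a close relative of Ptpra that acts on Src-family kinases, averaged 52.6 ± 1.96 CPM over the spleen libraries and 42.0 ± 0.152 CPM over those of mLN (SD, n = 3 each). It fell by 0.32 on the log2 scale (adjusted p = 0.000118 by edgeR). An overlapping gene, 5830432E09Rik, had 521 counts over all libraries beside 4553 of Ptpre, and reads of the pair may be shared. Ptprs, known as a receptor of heparan and chondroitin sulphate chains and as an inhibitory receptor of plasmacytoid dendritic cells, stood at 83.9, 81.8 and 75.4 CPM in spleen. In mLN it was at 66.1, 66.6 and 68.6 CPM, with no overlap (log2 fold change -0.26, adjusted p = 0.000176 by edgeR). Ptpro, whose short form is made by B cells and macrophages, fell from between 10.4 and 11.7 CPM in the spleen libraries to between 6.07 and 8.34 CPM in the other tissue (log2 fold change -0.61, adjusted p = 0.00127 by edgeR). With an offset for each library's effective transcript length, the calls of Ptprs (-0.35, adjusted p = 0.0586) and Ptpro (-0.55, adjusted p = 0.0818) were lost while their log2 fold changes stayed of like size.

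Ptpra, a broadly expressed activator of Src-family kinases, was not called. Its level was 107, 104 and 102 CPM in the spleen libraries and 106, 110 and 99.2 CPM in mLN, so that the tissues overlapped (log2 fold change 0.02, SE 0.0471, adjusted p = 0.805 by edgeR). Ptprf (LAR) and Ptprk, both better known from epithelial and neural cells, were at 1.40 to 5.62 CPM in the libraries and were not called (adjusted p = 0.0792 and 0.351 by edgeR). Ptprf had a log2 fold change of 0.64, which rested on single mLN libraries: 0.94 (adjusted p = 0.00562) without mLN replicate 3 and 0.30 (adjusted p = 0.52) without mLN replicate 2. With the effective-length offset it was 0.06 (adjusted p = 0.933). Ptprv, annotated as a processed transcript, was at 10.8 ± 0.774 CPM in the spleen libraries and 13.6 ± 1.65 CPM in mLN (a step of 0.33 on the log2 scale, adjusted p = 0.0487 by edgeR). This call was the weakest among the members: it was lost with DESeq2, with no filter, with a replicate block (adjusted p = 0.0527) and without each library except mLN replicate 2. With the effective-length offset the log2 fold change was -0.000318.

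The other 10 receptor-type genes and Ptpn20 did not pass the filter. Ptprd, Ptprq, Ptprt and Ptpn20 had no counts in any library, which allows up to 0.0603 CPM in the spleen libraries together and 0.0653 CPM in the mLN libraries (3 counts, counting error only). Ptprb, the phosphatase of endothelial cells that pairs with the receptor Tek, had 2 counts in spleen and 0 in mLN. Ptprm had 35 counts in the spleen libraries and 8 in the mLN libraries. Ptpru had 15 and 6, Ptprn 12 and 6, Ptprh 7 and 4, Ptprg 3 and 7 and Ptprr 3 and 1. These genes act mostly in brain, endothelium and epithelium, and at these counts no comparison between the tissues was made. Of the family's genes whose symbols fall outside the rule, Ptprz1 had no counts and Ptprn2 a mean of 0.0797 CPM in the spleen libraries and 0.0187 CPM in mLN.

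Summed over the receptor type, TPM rose from 997 ± 29.6 in spleen to 1137 ± 9.52 in mLN (SD, n = 3 each), and Ptprc made up 81.1% to 82.7% of it in spleen and 86.5% to 87.9% in mLN. The other 18 receptor-type genes together had 190, 173 and 176 TPM in spleen. In mLN they had 146, 153 and 136 TPM, below every spleen library. The non-receptor type summed to 1168 ± 12.9 TPM in spleen and 1163 ± 23.4 TPM in mLN, with overlapping libraries. Ptprc thus took 37.1% to 38.9% of the TPM of all 36 genes in spleen and 43.1% to 43.2% in mLN. No test was made on these sums, since TPM of several members moves with the lengths estimated for their transcripts.

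The size of the CD45 message was compared as a description. The deposited tables hold no counts of single transcripts, but give each gene a mean transcript length, weighted by the estimated share of its transcripts. For Ptprc this was 4171, 4270 and 4150 bases in the spleen libraries and 4116, 4093 and 4058 bases in the mLN libraries. All 3 mLN values were shorter, by 108 bases on average (exact two-sided permutation p = 0.1 over 20 assignments, the smallest that 3 against 3 libraries allows). Leaving out single libraries gave 71.6 to 131.5 bases, the smallest without spleen replicate 2, which had the longest value. Among tested genes with more than 1 transcript and at least 1000 counts, 14.6% had lengths that did not overlap between the tissues, 7.44% in the direction of Ptprc. Of the 25 tested phosphatases, lengths did not overlap in 2, Ptprc and Ptpn12, against 12.2% of all tested genes with more than 1 transcript (6.65% shorter in mLN). The bases by which effective length falls short of length, a measure of fragment size, were 218 to 229 in spleen and 212 to 216 in mLN, and their part in the length difference was not tested.

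The annotation lists 13 transcripts of Ptprc, all of them in the deposited tables, of which 5 are coding and 8 retain introns. The transcript with exons A, B and C has 5074 bases, the one without them 4702 and the one that also skips the next exon, of 72 bases, 4611. The printed exons A to C add up to 417 bases. Every library's mean lay below these 3 lengths, so that shorter annotated models, the longest of them 3445 bases, carried part of the estimate. The mean length therefore does not resolve which of the 3 exons were kept.

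**Figure D2:**
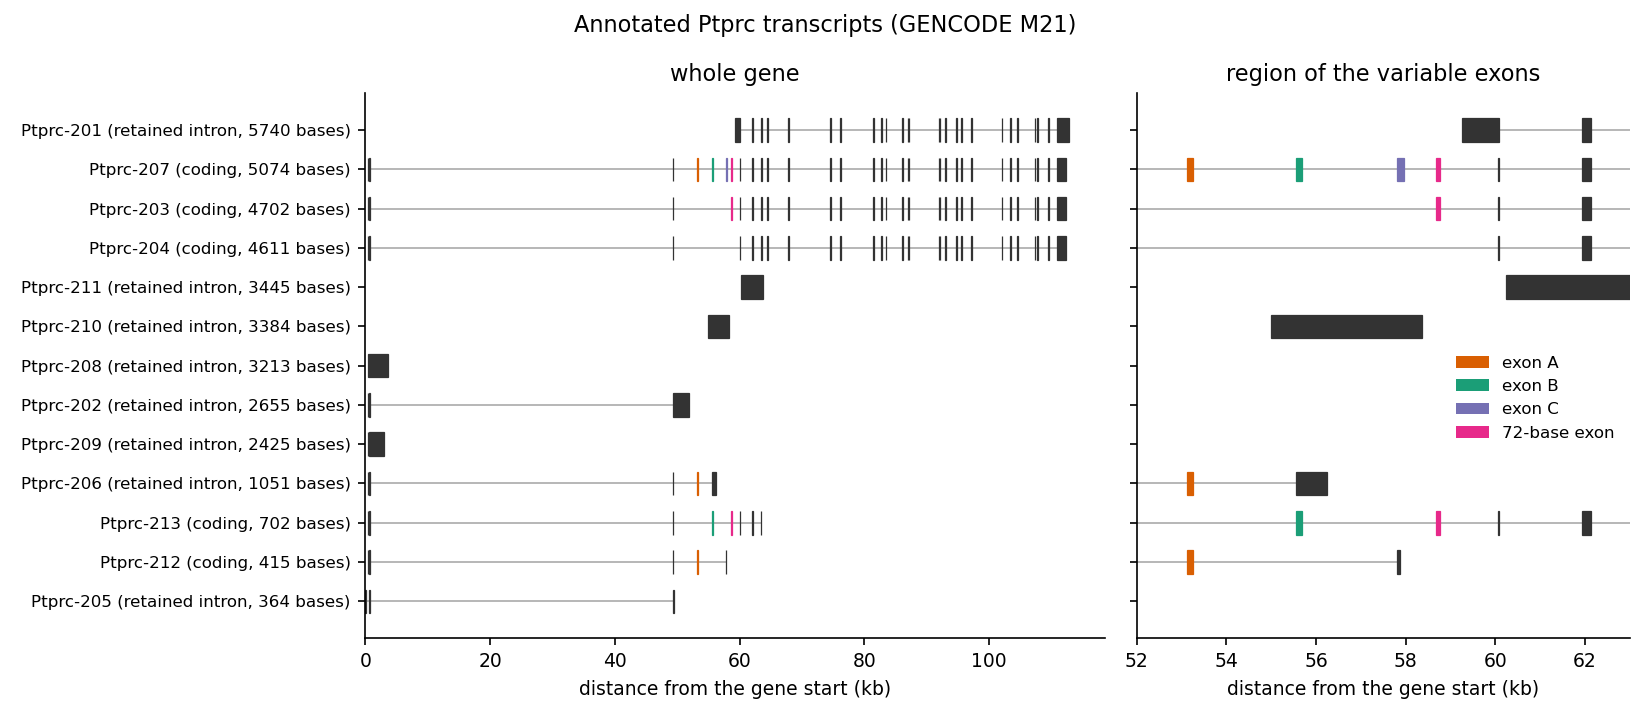
Exons (boxes) of the 13 annotated Ptprc transcripts against distance in kb from the most upstream start, for the whole gene on the left and the region of the variable exons on the right; colours mark exons A, B, C and the 72-base exon. The 5074-base transcript holds all 4 coloured exons, the 4702-base transcript the 72-base exon and the 4611-base transcript none.

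**Figure D3:**
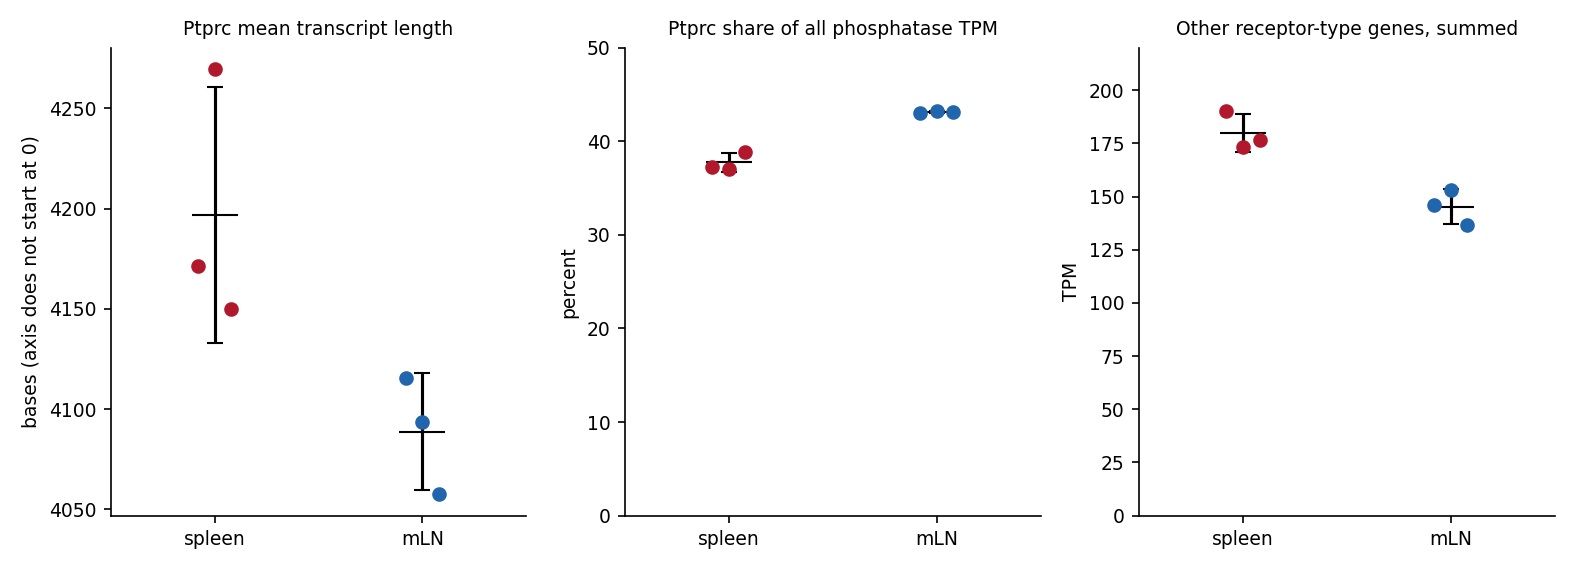
Mean transcript length of Ptprc in bases (left, axis not from 0), its share of the TPM of all 36 phosphatase genes (middle) and the summed TPM of the other 18 receptor-type genes (right); points are libraries, bars mean ± SD of 3. In each panel the 3 mLN libraries lie apart from the 3 spleen libraries: shorter, higher and lower, respectively.

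Among genes tied to CD45, Ptprcap, which encodes a small membrane protein bound to it, rose from 268 ± 3.24 to 290 ± 3.56 CPM (log2 fold change 0.11, adjusted p = 0.00289 by edgeR). Hnrnpll, a splicing regulator of the variable exons that promotes their skipping in T cells, stood at 41.3, 42.7 and 37.9 CPM in the spleen libraries and 45.1, 48.1 and 49.0 CPM in mLN. All mLN libraries were above all spleen libraries (log2 fold change 0.22, adjusted p = 0.0106 by edgeR), though the call was lost without spleen replicate 3 (adjusted p = 0.0773). Both calls were lost with the effective-length offset at nearly the same log2 fold changes (0.10, adjusted p = 0.0549 for Ptprcap and 0.24, adjusted p = 0.0577 for Hnrnpll). Of 17 genes listed as CD45 partners or splicing factors, 8 were higher and 4 lower, beside 21.8% and 23.8% of all genes tested. The T-cell adhesion gene Cd2 (0.38 on the log2 scale), also a pan-T marker, and Dpp4 (0.24), whose product binds CD45, rose most. The galectin genes Lgals3 (-1.37) and Lgals1 (-0.49), whose products bind sugars on CD45, fell.

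Ptpn6, which encodes SHP-1, the main phosphatase recruited by inhibitory receptors of leukocytes, was the most abundant non-receptor gene (chromosome 6, 124720707 to 124738714). Its level was 647, 635 and 640 CPM in the spleen libraries and 584, 575 and 582 CPM in mLN. The mLN libraries were all lower, by a small step of 0.14 on the log2 scale (SE 0.0264, adjusted p = 1.68e-05 by edgeR). Its relative Ptpn11 (SHP-2), which mostly relays growth factor and cytokine signals, stood at 168 ± 3.67 and 156 ± 4.67 CPM (log2 fold change -0.11, adjusted p = 0.0162 by edgeR). The offset, or dropping spleen replicate 1 or mLN replicate 2, ended that call (adjusted p = 0.08 to 0.123). On the TPM scale SHP-1 exceeded SHP-2 by 11.1 to 11.5 times in spleen and by 10.9 to 11.2 times in mLN. The ratio of Ptprc to Ptpn6, on the same scale, was 1.52 to 1.63 in spleen and 2.12 to 2.20 in mLN, with no overlap. These ratios are descriptions and were not tested.

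Of 30 receptors listed as carrying inhibitory motifs that can recruit SHP-1 or SHP-2, 24 were lower and 3 higher in mLN among 29 tested. The shares over all genes tested were 23.8% lower and 21.8% higher. The median log2 fold change of the list was -0.82. Their summed level was 4021 to 4084 CPM in the spleen libraries and 2893 to 2995 CPM in mLN. The largest falls among those above 10 CPM were Cd33 (-2.81), a sialic acid receptor of myeloid cells, and Fcrl5 (-1.97). The latter is a surface receptor of B cells from the Fc receptor-like family. Cd22 and Cd72, surface receptors of B cells also counted among the pan-B markers, had log2 fold changes of -0.67 and -0.84. Cd5, a surface receptor of T cells and pan-T marker, rose by 1.01, as did Vsir by 0.44 and Slamf6 by 0.32. Siglech and Vsir were listed although neither carries a classical motif of this kind.

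Ptpn22 encodes a phosphatase of lymphocytes that acts on Lck, Zap70 and the T-cell receptor chains and is known from variants tied to autoimmune disease. It lies on chromosome 3 (103859795 to 103912247). Its level was 132, 132 and 135 CPM in the spleen libraries and 187, 176 and 197 CPM in mLN. Every mLN library was higher, at 1.40 times the spleen level (log2 fold change 0.48, SE 0.0396, adjusted p = 8.68e-14 by edgeR). The phosphatases Ptpn12 and Ptpn18 share its proline-rich PEST tail. Ptpn12 (PTP-PEST) stood at 35.5 ± 0.940 and 41.8 ± 0.718 CPM (log2 fold change 0.23, adjusted p = 0.00817 by edgeR). Its mean transcript length was 2324 to 2610 bases in spleen and 2742 to 3022 in mLN, and with the effective-length offset its log2 fold change was -0.02 (adjusted p = 0.919). Ptpn18 stood at 61.7 ± 4.48 and 72.1 ± 2.75 CPM (log2 fold change 0.22, adjusted p = 0.0026 by edgeR). A gene overlapping Ptpn18 on the opposite strand, Gm28417, had 504 counts over all libraries beside 6365 of Ptpn18, and reads may be shared. All 3 genes of this group were thus called higher in mLN in CPM, but Ptpn12 was not called on the length-adjusted scale.

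Csk, the kinase that works with Ptpn22, was 541 CPM in the spleen libraries and 511 CPM in mLN, a step of -0.08 on the log2 scale (adjusted p = 0.0159 by edgeR). Dropping spleen replicate 1 or 2 or mLN replicate 1 ended that call. Of 12 genes listed as partners of the PEST phosphatases, 4 were higher and 3 lower of 11 tested. The shares over all genes tested were 21.8% and 23.8%. Arhgap45 (0.31) and the adaptor Pstpip1 (0.25) rose most, and Pstpip2 (-1.08), an adaptor of myeloid cells, fell most.

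Ptpn2 (TC-PTP), which acts on JAK1, JAK3 and STAT proteins and on Src-family kinases of T cells, stood at 38.7, 36.2 and 41.7 CPM in spleen. In mLN it was at 52.3, 49.0 and 55.0 CPM, above all spleen libraries (log2 fold change 0.42, SE 0.0731, adjusted p = 6.02e-06 by edgeR). Its closest relative Ptpn1 (PTP1B), a regulator of insulin and cytokine receptors, moved the other way. It stood at 302, 317 and 303 CPM in the spleen libraries and 280, 275 and 261 CPM in mLN, with no overlap (log2 fold change -0.18, SE 0.0327, adjusted p = 1.85e-05 by edgeR). Per length, Ptpn1 exceeded Ptpn2 by 3.64 to 4.27 times in spleen and by 2.50 to 2.79 times in mLN. Among their substrates, 9 of 11 JAK and STAT genes were higher and 1 lower (median log2 fold change 0.17). The shares over all genes tested were 21.8% and 23.8%. Stat4 (0.73), which relays interleukin-12, and Jak1 (0.46) rose most, and Stat2 (-0.16) fell.

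Ptpn7 (HePTP), a phosphatase of lymphocytes that acts on the kinases ERK and p38, stood at 123, 114 and 109 CPM in the spleen libraries and 128, 131 and 128 CPM in mLN. The lowest mLN library was just above the highest spleen library (log2 fold change 0.16, adjusted p = 0.00325 by edgeR), and without spleen replicate 3 the adjusted p was 0.0507. Ptpn7 and Ptprv lie head to head on chromosome 1, with 105 bases between the annotated ends of the 2 genes (GRCm38). The stretch is shown because both members were called higher in mLN in the main fit. The Ptprv call (adjusted p = 0.0487 by edgeR) was lost under several alternatives, as given above. Whether the 2 genes share control was not tested. It comes from the RefSeq promoter table (GRCm38.p6, plus strand), and capitals mark GGAA or its reverse complement TTCC, the core of sites for Ets factors.
Ptprv to Ptpn7, chr1:135132595-135132699: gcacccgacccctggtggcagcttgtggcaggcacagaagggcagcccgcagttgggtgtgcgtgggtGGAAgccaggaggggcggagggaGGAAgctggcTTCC
The 3 matches describe letters, not bound sites. Over the 105 bases before the start in 32851 promoter entries, 68.6% held the motif and 13.2% held it at least 3 times. Entries were found for 30 of the 36 members. The pair on chromosome 10, Ptprr and Ptprb, lies 590 bases apart in tandem, and both had fewer than 5 counts.

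MAP kinases are also reset by dual-specificity phosphatases. Of 25 genes listed as MAP kinase or other dual-specificity phosphatases, 22 were tested, with 6 higher and 6 lower in mLN (median log2 fold change -0.03). For this list and the next, the shares over all genes tested were 21.8% higher and 23.8% lower. Dusp10 (1.13), which acts on p38 and JNK, and the immediate-early gene Dusp1 (0.65) rose most among genes above 10 CPM, and Dusp16 (-1.12) and Dusp22 (-0.65) fell most. Among 23 other phosphatases and related genes, 3 were higher and 8 lower of 20 tested (median -0.21). Ubash3a (1.39), a phosphatase-like suppressor of T-cell receptor signalling and a pan-T marker, and Eya2 (1.37) rose most. Tns3 (-1.25) and the cell cycle phosphatase gene Cdc25b (-0.39) fell most among genes above 10 CPM. Cell cycle markers were all lower beside Cdc25b, 16 of 16.

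Ptpn14, which restrains the growth regulator YAP, had the widest gap of any tested member. It had 321, 336 and 261 counts in the spleen libraries and 42, 73 and 31 in the mLN libraries, or 18.4, 20.5 and 15.6 CPM against 2.80, 4.11 and 2.51 CPM. The groups were far apart, with spleen 5.66 times as high by the fitted fold (log2 fold change -2.50, SE 0.172, adjusted p = 4.31e-16 by edgeR). Its mean transcript length ran from 3918 to 9514 bases over the mLN libraries. With the effective-length offset the log2 fold change was smaller, -2.03, and still called (adjusted p = 0.000197 by edgeR). Of the 7 tested stroma, endothelium and epithelium genes 3 were lower in mLN (Vwf, Cdh5 and Pdgfrb), 1 was higher (Cdh1) and 3 were not called (Col1a1, Kdr and Epcam). Over all genes tested 23.8% were lower and 21.8% higher. The summed level of the stroma, endothelium and epithelium list overlapped between the tissues, at 21.2 to 28.1 CPM over the spleen libraries and 17.5 to 21.3 CPM over those of mLN. The neutrophil and erythroid lists were lower beside Ptpn14, as given above. Which cells carried the Ptpn14 message was not tested.

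Ptpn13, a large scaffold-like phosphatase with FERM and PDZ domains, was at 26.9, 28.1 and 27.0 CPM in the spleen libraries and 22.1, 21.7 and 21.9 CPM in mLN. It fell by 0.32 on the log2 scale (adjusted p = 0.00374 by edgeR). Ptpn4, of the FERM-domain group as well, had 58.9 ± 1.33 and 52.4 ± 3.41 CPM (log2 fold change -0.16, adjusted p = 0.037 by edgeR). Its call was lost with DESeq2 and on leaving out any of 4 libraries: spleen replicates 1 to 3 and mLN replicate 3. Its mean transcript length varied from 5433 to 10874 bases over the libraries, and with the effective-length offset its log2 fold change was 0.26 (adjusted p = 0.469). Ptpn3, the relative of Ptpn4, had 5.29, 4.57 and 5.44 CPM in the spleen libraries and 8.74, 5.51 and 8.42 CPM in mLN. The lowest mLN value was barely above the highest of spleen (log2 fold change 0.56, adjusted p = 0.0207 by edgeR), and the call was lost on dropping spleen replicate 2 or mLN replicate 1 or 3, and with the offset (0.75, adjusted p = 0.149). Ptpn21, the last tested gene of the group, was not called (9.31 ± 0.939 and 8.97 ± 0.632 CPM, adjusted p = 0.818 by edgeR).

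Ptpn5 (STEP), best known from neurons, had 52, 19 and 37 counts in the spleen libraries and 3, 11 and 13 in the mLN libraries. It passed the filter through its spleen libraries, with 1 mLN library above the minimum of 0.613 CPM. Its log2 fold change was -1.79 (SE 0.498, adjusted p = 0.00281 by edgeR), and the call was lost without spleen replicate 1 (adjusted p = 0.0581) and with the offset (-0.66, adjusted p = 0.526). Ptpn23 (HD-PTP), an endosomal sorting protein, and Ptpn9, a phosphatase of secretory vesicles, were not called. Ptpn23 stood at 67.1, 70.4 and 66.8 CPM in the spleen libraries and 70.2, 67.7 and 66.5 CPM in mLN, and Ptpn9 at 27.2 ± 1.05 and 28.5 ± 1.40 CPM. Their adjusted p-values were 0.986 and 0.571 by edgeR.

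**Figure D4:**
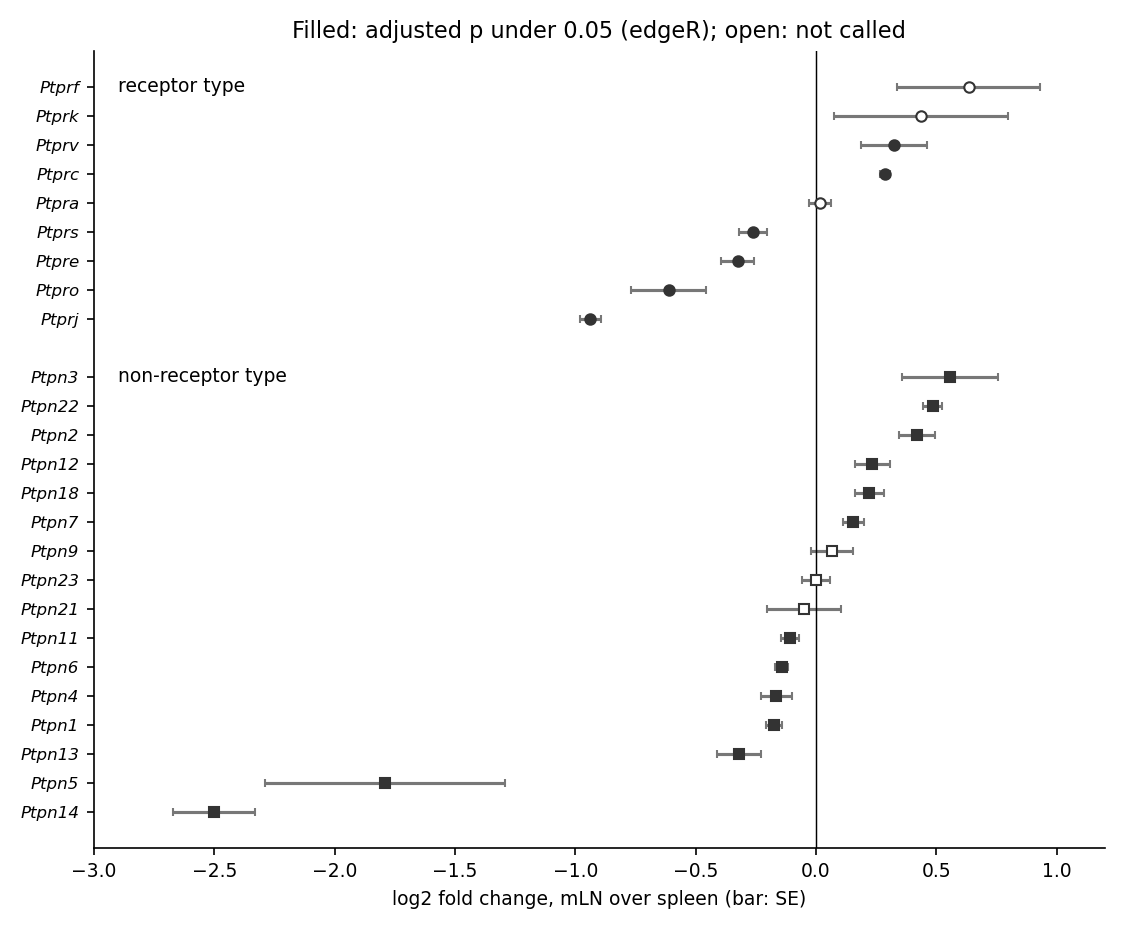
Log2 fold change, mLN over spleen, of the 25 tested phosphatase genes with its SE, receptor type above (circles) and non-receptor type below (squares); filled symbols passed an adjusted p under 0.05. Called genes lie on both sides of 0 in both types, and Ptpn14 and Ptpn5 lie beyond -1. Ptpn5 passed the filter on low counts through its spleen libraries.

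The kinases that these phosphatases act on or oppose changed in both directions. Of 8 Src-family genes, 3 were higher and 4 lower in mLN (median log2 fold change -0.24). The shares over all genes tested were 21.8% and 23.8%. Lck, the Src-family kinase of T cells and a direct substrate of CD45, stood at 325, 326 and 327 CPM in the spleen libraries and 733, 716 and 720 CPM in mLN (a step of 1.15 on the log2 scale, SE 0.0276, adjusted p = 1.10e-31 by edgeR). Fyn rose by 0.58. The B-cell kinase gene Blk fell by 1.12, and Lyn had a log2 fold change of -0.91. Lck is also on the pan-T list and Blk on the pan-B list, so neither is separate from those counts.

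In the list of Syk, Tec and Csk kinases with their adaptors, 9 genes were higher and 4 lower of 15 (median 0.24). For this list and the next, the shares over all genes tested were 21.8% higher and 23.8% lower. The T-cell kinase gene Txk rose by 1.32, and the kinases Syk (-1.08) and Btk (-0.76), which act in B and myeloid cells, fell most. Adaptors of SHP-2 and antigen receptors had 5 higher and 10 lower of 18 tested (median -0.20). Lat (1.40) and Themis (1.19), T-cell genes whose products bind phosphatases or their targets, rose most. Both are also on the pan-T list. Nfam1, at 102 CPM in the spleen libraries and 46.8 CPM in mLN, and Gab2, an SHP-2 docking protein at 11.8 and 5.95 CPM, fell most among genes above 10 CPM. The log2 fold changes of member phosphatases above 100 CPM in either tissue ran from -0.94 for Ptprj to 0.48 for Ptpn22.

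**Figure D5:**
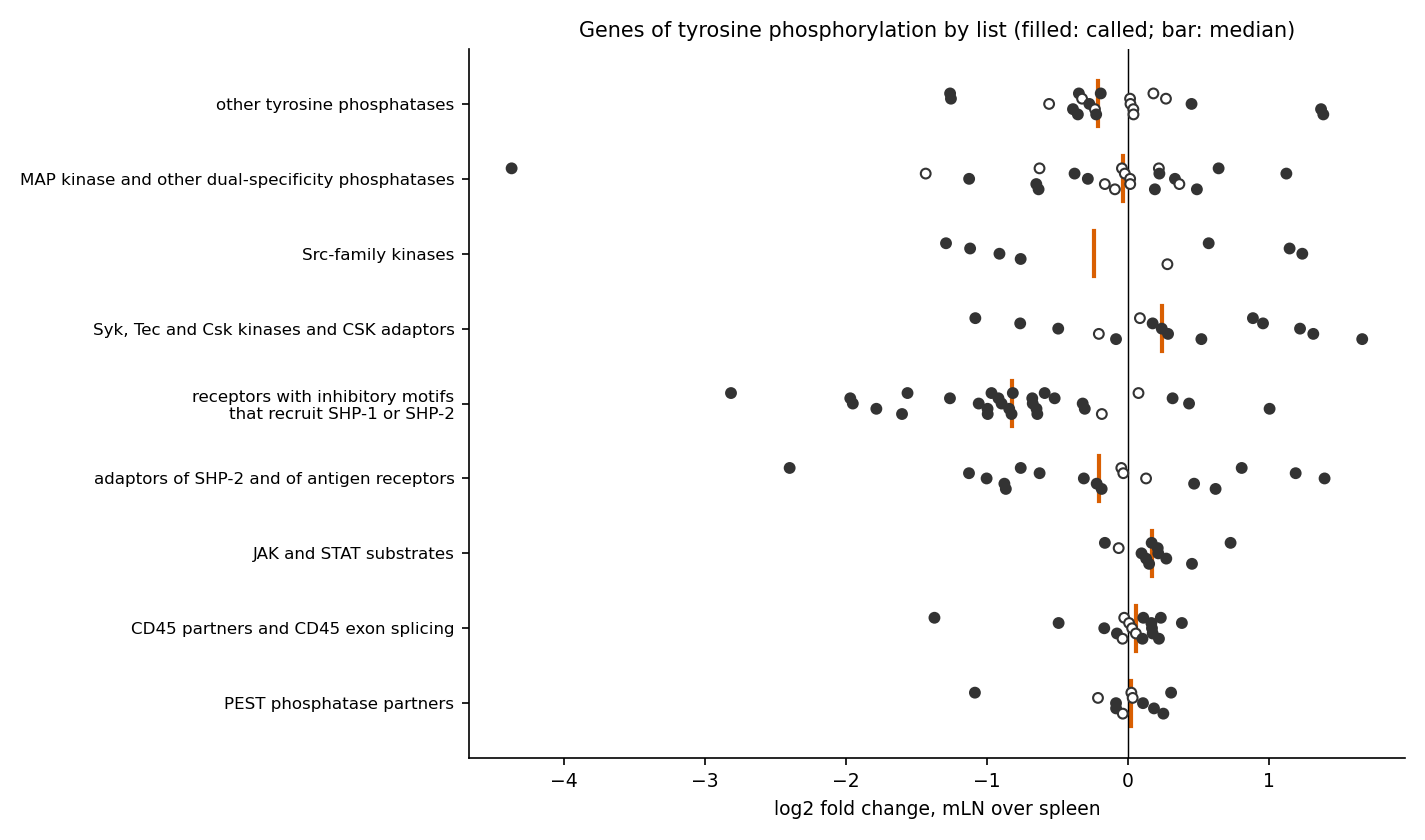
Log2 fold change, mLN over spleen, of tested genes in the 9 lists of tyrosine phosphorylation; each point is a gene, filled where called, and the orange bar is the list median. The receptors that recruit SHP-1 or SHP-2 lie mostly below 0 (median -0.82), the JAK and STAT genes mostly above (median 0.17), and the Src-family kinases on both sides.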

How the data were processed

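The authors deposited 1 RSEM gene table for each of the 6 libraries, for which STAR, RSEM and mm10 are named in the submitters' processing notes, without versions. The annotation and strand setting behind them is not given in the sources used here. Per the file headers, the authors' tables give an expected count (an estimated count of reads, not scaled), a TPM value per length and a mean transcript length with its effective length. Of 55487 identifiers 55141 matched a symbol in GENCODE M21 (GRCm38, called mm10 as well), and the other 346 held 0.0356% to 0.0446% of a library's counts. Each list symbol took the identifier with the most counts.

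Expected counts were rounded, genes kept with filterByExpr by tissue, and libraries scaled with TMM. The test was glmQLFTest of edgeR 4.0.16 (robust fit, R 4.3.3). DESeq2 1.42.0 and other scalings, filters and left-out libraries were alternatives. The test was tried on simulated counts. SE come from the F statistic. Counting was per gene, so overlapping genes may share reads, and without a known strand setting antisense partners may too. Reads carried no molecular identifiers.

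Every tested member is named; from each list, the called genes that rose most (up to 2) and fell most (up to 2) at 10 CPM or more in the higher tissue, plus a few genes fixed beforehand by name (Ptprcap, Hnrnpll, Csk, Lck, Ptprn2, Ptprz1). Others named beside them, such as Cd22, Cd72, Slamf6, Lyn and the stroma, endothelium and epithelium genes, were chosen after their values were seen. Some genes that the rule names are not reported here. Members and lists were chosen with earlier results of these data known. Log2 CPM correlated at 0.984 to 0.989 within and 0.934 to 0.937 between tissues. Within a tissue, the median squared difference between 2 libraries was 2.49 to 2.95 times that of counting alone. None was therefore treated as a library deposited again. The excess does not show that the libraries are separate animals.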

Additional observations from a re-analysis of the deposited data

How the results depend on the processing

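Depth limits the 11 members that did not pass the filter, and the spread of 3 libraries limits some small changes: the calls of Ptpn11, Ptpn4 and Ptpn7 depended on single libraries, whereas Ptpn6 and Ptpn1 stayed called whichever library was left out. An offset from each library's effective length left 5 members higher and 6 lower, against 8 and 11, and over all genes 2167 higher and 2520 lower, against 3139 and 3430. Of the members called under it, 1 higher and 2 lower were of the receptor type and 4 lower of the non-receptor type. It also left 2 lower genes among CD45 partners and 2 higher among PEST partners. Under it, of the members called in the main fit, Ptpn12 (-0.0163), Ptpn4 (0.26) and Ptprv (-0.000318) changed sign, and none of them stayed called. Ptpn21 (from -0.052 to 0.22) and Ptpn23 (from 0.0015 to -0.039), not called in either fit, changed sign as well. The cause of these shifts was not tested. Among receptor-type genes 1 was higher with DESeq2, with no filter and with the replicate block, against 2, the one lost being Ptprv. Leaving out single libraries gave 6 to 8 members higher and 8 to 11 lower. It gave 1 to 2 higher and 4 to 5 lower of the receptor type, and 4 to 7 lower of the non-receptor type. For lists it gave 1 to 2 lower JAK and STAT genes and 1 to 3 lower PEST partners. With no filter the median log2 fold change of receptor-type genes was -0.40. Deviations from the tissue mean correlated at -0.008 to 0.028 between same-numbered libraries of the tissues and at -0.039 to 0.012 between differently numbered ones. With 3 libraries per tissue, these values cannot decide whether the numbers pair animals. With a replicate block 7 members were higher and 11 lower, Ptprv being lost. No scaling moved the median of all genes by more than 0.1, but each scaling itself holds that median near 0.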
